A study of Homo sapiens with 3 samples.

Results

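The genes described here encode 10 non-catalytic partners of the KMT2 family of histone methyltransferases, the enzymes of the complexes known as COMPASS and COMPASS-like. Members were taken by symbol and matched to Entrez identifiers. All 10 were found among the 18331 gene identifiers of the series, and all 10 passed the filter on low counts that left 14016 genes for testing. They are WDR5 (Entrez 11091), RBBP5 (5929), ASH2L (9070), DPY30 (84661), KDM6A (7403), NCOA6 (23054), PAXIP1 (22976), PAGR1 (79447), MEN1 (4221) and HCFC1 (3054).

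KMT2 and SETD1 enzymes place methyl groups on lysine 4 of histone H3, a mark of active promoters and enhancers, and are weak enzymes on their own. The core subunits WDR5, RBBP5, ASH2L and DPY30 bind every member of the enzyme family and stimulate its activity. KDM6A (also called UTX, a demethylase of lysine 27 of histone H3), NCOA6, PAXIP1 (also called PTIP) and PAGR1 (also called PA1) belong to the complexes of KMT2C and KMT2D, which act mainly at enhancers. MEN1 (menin) anchors KMT2A and KMT2B to chromatin, and HCFC1 (host cell factor C1) is found with KMT2A, KMT2B and the SETD1 enzymes.

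Polyadenylated RNA was sequenced from PC-3 cells (a long-established line derived from human prostate cancer) that had been infected for 7 days with lentivirus expressing a short hairpin RNA (shRNA). The word retinal stands beside PC-3 in the submitters' design description, whereas every sample label gives PC-3 alone, which was followed here. Of the 3 libraries, 2 were labelled KMT2D shRNA (genotype label KMT2D deficiency) and 1 was labelled control shRNA (KMT2D normal). All cells thus carried a lentiviral hairpin, and the labels do not say whether libraries 1 and 2 came from different hairpins or from separate cultures. The p-values therefore measure only the spread between these libraries, which may be technical and was mostly pooled over all tested genes. The lone control was assumed to vary like the others.

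Library totals were 5123794 to 5559449 estimated counts, and 13445 to 13603 genes had 10 counts or more. Levels are given as CPM (counts scaled to the library total), and levels of different genes are compared only as FPKM, which is also scaled by transcript length. KMT2D, the targeted gene, stood at 109, 136 and 99.1 CPM in library 1, library 2 and the control, so neither labelled library had less of its RNA than the control (log2 fold change 0.29, SE 0.18, edgeR adjusted p = 0.227). That direction turned once a trend with transcript length was removed (-0.67, edgeR adjusted p = 0.0141), and with length and GC trends removed KMT2D was at -0.52 (edgeR adjusted p = 0.0629). Whether KMT2D RNA was lower thus depends on that removal, and directions below are given for the libraries labelled KMT2D shRNA. Of the epithelial markers, KRT8, KRT18, KRT19, EPCAM and CDH1 were all detected (848 and 872 CPM summed in libraries 1 and 2, and 1418 CPM in the control). KRT8, KRT18 and KRT19 fell (log2 fold change -0.67, -0.88 and -0.75, edgeR adjusted p = 0.00168, 3.79e-05 and 0.000217). Without the length trend only KRT18 among them passed (-0.57, edgeR adjusted p = 0.0184). EPCAM (-0.45) and CDH1 (0.51) did not pass (edgeR adjusted p = 0.127 and 0.128). The prostate lineage genes KLK3 and KLK2 were not listed. Leukocyte markers summed to 22.4 to 34.5 CPM, with CD3E not listed. Most of that was LYZ, at 22.9, 19.5 and 32.6 CPM in library 1, library 2 and the control. LYZ fell (log2 fold change -0.64, edgeR adjusted p = 0.0189) but did not pass without the length trend (-0.34, edgeR adjusted p = 0.288). The endothelial markers VWF and CDH5 were not listed, while PECAM1 was at 19.6, 18.7 and 20.1 CPM and KDR at 117, 82.2 and 48.2 CPM in library 1, library 2 and the control. PECAM1 did not pass (log2 fold change -0.09, edgeR adjusted p = 0.805), and KDR rose (1.03, edgeR adjusted p = 6.05e-05; 0.65 without the length trend, edgeR adjusted p = 0.0306). Fibroblast markers summed to 414 to 443 CPM, mostly COL1A1 (378, 381 and 393 CPM), but PDGFRA among them rose, from 10.3 CPM in the control to 39.6 and 46.6 CPM in libraries 1 and 2 (log2 fold change 2.05, SE 0.25, edgeR adjusted p = 5.57e-09; 1.63 without the length trend, edgeR adjusted p = 8.76e-05). The control also differed from the others in the interferon-induced gene ISG15 (105 and 93.3 CPM in libraries 1 and 2, 3046 CPM in the control). Whether these differences have a part in the values below was not tested.

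Of the 10 partner subunits, 3 rose in the libraries labelled KMT2D shRNA: HCFC1, NCOA6 and PAXIP1, by 1.81-fold, 1.59-fold and 1.51-fold. None of the others passed edgeR's quasi-likelihood test at a Benjamini-Hochberg adjusted p under 0.05, and 0 fell (0 also at an unadjusted p under 0.05, and 0 with DESeq2, which called 1 of the 10 higher). Among all tested genes 16.5% rose and 14.5% fell by edgeR, and 6.53% and 4.27% by DESeq2. The median log2 fold change of the partners was 0.22, beside -0.01 over all tested genes. None of the 4 core subunits was among those that rose. The 3 were spread over 2 of the 4 KMT2C and KMT2D partners and 1 of the 2 partners of KMT2A and KMT2B. After removal of a dependence of fold change on transcript length, 0 of the 10 passed in edgeR. In that fit 8.29% of all genes rose and 8.78% fell. At an unadjusted p under 0.05, 2 partners were higher in that fit, PAXIP1 and the core subunit DPY30. By that measure 4288 of the 14016 tested genes passed in either direction.

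**Figure D1:**
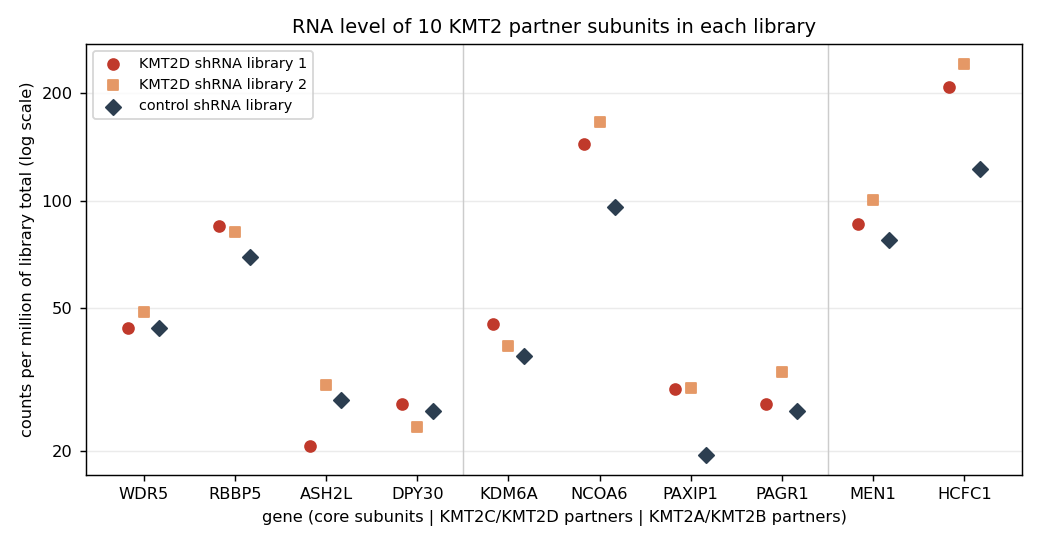
RNA level of each partner subunit in CPM (log axis) in the 2 libraries labelled KMT2D shRNA and in the control library, 1 point per library. HCFC1, NCOA6 and PAXIP1 lie highest above their control point, while the points of WDR5, ASH2L and DPY30 lie close together or on both sides of it.

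None of the core subunits passed the test, and RBBP5 and WDR5 were at or above the control in both labelled libraries while ASH2L and DPY30 lay on both sides of it. WDR5, the beta-propeller scaffold that holds the enzyme and RBBP5 together, was at 44.2 CPM in library 1, 49.0 CPM in library 2 and 44.1 CPM in the control. Library 1 and the control were thus nearly equal, and the log2 fold change was 0.06 (SE 0.19, edgeR adjusted p = 0.838). RBBP5, which docks onto WDR5 and ASH2L, was at 85.1 CPM, 82.0 CPM and 69.8 CPM in the same order. Both labelled libraries lay above the control for RBBP5, but the log2 fold change (0.24, SE 0.18) did not pass (edgeR adjusted p = 0.317).

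ASH2L, which pairs with RBBP5 to stimulate methylation, was at 20.6 CPM in library 1, 30.4 CPM in library 2 and 27.7 CPM in the control. The labelled libraries fell on opposite sides of the control. Library 2 was 1.48 times library 1 for ASH2L (95% interval 1.15 to 1.91, counting error only), the widest gap between the labelled libraries among the 10 genes. Its log2 fold change over the group was -0.14 (SE 0.23, edgeR adjusted p = 0.694), but -0.46 in library 1 alone and 0.13 in library 2 alone. DPY30, a small protein that binds the end of ASH2L, was at 27.0 CPM, 23.2 CPM and 25.9 CPM in library 1, library 2 and the control, again on both sides of it (log2 fold change -0.06, SE 0.22, edgeR adjusted p = 0.858).

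Of the partners particular to KMT2C and KMT2D, NCOA6 and PAXIP1 rose and KDM6A and PAGR1 did not pass. NCOA6, a coactivator of nuclear receptors, was at 144 CPM in library 1, 166 CPM in library 2 and 96.2 CPM in the control. Both labelled libraries were well above the control, at 1.50 times its share (95% interval 1.34 to 1.68) and 1.72 times (1.54 to 1.92). The log2 fold change of NCOA6 was 0.67 (SE 0.18, edgeR adjusted p = 0.00341, group mean 155 ± 15.0 CPM, SD, n = 2). PAXIP1, a protein with BRCT domains that also acts in the DNA damage response, was at 29.7 CPM, 29.9 CPM and 19.4 CPM in library 1, library 2 and the control. The labelled libraries nearly coincided for PAXIP1 (29.8 ± 0.138 CPM, SD, n = 2), and the log2 fold change was 0.60 (SE 0.22, edgeR adjusted p = 0.0366). That value rests on 153, 153 and 108 counts and lies near the threshold. PAXIP1-AS2, which overlaps PAXIP1 in the RefSeq annotation, was at 9.69, 13.9 and 7.02 CPM, and without strand its reads and those of PAXIP1 cannot be told apart where they overlap.

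KDM6A, the demethylase that opposes Polycomb marking at enhancers, was at 45.2 CPM in library 1, 39.2 CPM in library 2 and 36.9 CPM in the control. Library 1 was above the control by more than counting error (1.23 times, 95% interval 1.01 to 1.49), and library 2 was not (1.06 times, 0.871 to 1.30). Over the group the log2 fold change of KDM6A was 0.18 (SE 0.20, edgeR adjusted p = 0.536), and it turned to -0.18 without the length trend (edgeR adjusted p = 0.559). KDM6A has a close copy on the Y chromosome, not analysed here. The deposited counts of KDM6A were fractional in all 3 libraries (232.95, 200.73 and 204.75) although only 1 transcript was listed for it. Fractional counts were not particular to KDM6A. RBBP5 had them in all 3 libraries too, and 67.8% to 68.0% of the genes listed in each library had whole counts. PAGR1, the small partner of PAXIP1, was at 27.0, 33.2 and 25.9 CPM in library 1, library 2 and the control, with library 1 close to the control and library 2 above it. Its log2 fold change was 0.20 (SE 0.22, edgeR adjusted p = 0.525). MVP, which encodes the major vault protein and overlaps PAGR1 in the RefSeq annotation, went the other way at 54.1, 60.4 and 116 CPM, so the PAGR1 value is uncertain where the genes overlap.

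HCFC1, a large protein that is cleaved into subunits and links methyltransferases to promoter-bound factors, was at 208 CPM in library 1, 242 CPM in library 2 and 123 CPM in the control. It had the largest change of the 10 genes in either library, at 1.70 times the control share (95% interval 1.54 to 1.87) and 1.97 times (1.79 to 2.17). The log2 fold change of HCFC1 was 0.86 (SE 0.18, edgeR adjusted p = 0.00022, group mean 225 ± 23.7 CPM, SD, n = 2). MEN1, known as a tumour suppressor in endocrine tissue and as the cofactor of KMT2A in leukemia, was at 86.1, 101 and 77.5 CPM in library 1, library 2 and the control. Both labelled libraries lay above the control for MEN1, library 1 within counting error (1.11 times, 95% interval 0.970 to 1.27) and library 2 beyond it (1.30 times, 1.14 to 1.48), and its log2 fold change (0.25, SE 0.18) did not pass (edgeR adjusted p = 0.300).

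**Figure D2:**
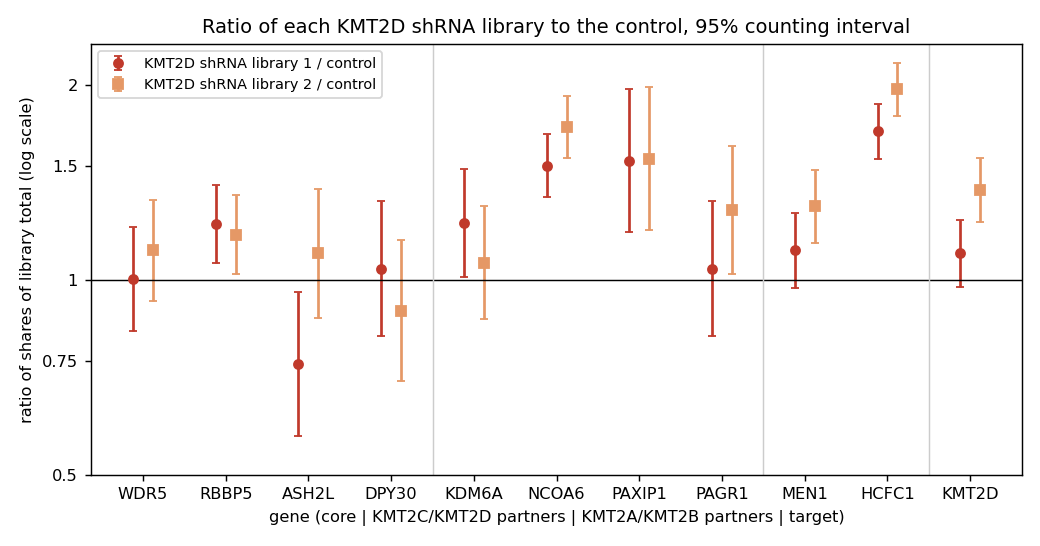
Ratio of each library labelled KMT2D shRNA to the control library (log axis) for the 10 partner subunits and KMT2D, with exact 95% intervals that cover counting error only. The intervals of RBBP5, NCOA6, PAXIP1 and HCFC1 lie above 1 in both libraries, and ASH2L in library 1 is the interval that lies below 1.

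By counting error alone, 5 of the 10 partners were above the control in library 1 and 1 was below it, beside 30.0% and 25.5% of all tested genes. In library 2 these numbers were 6 and 0, beside 27.8% and 25.6%. Those comparisons share the control library. Between the labelled libraries, 4 partners (ASH2L, NCOA6, MEN1 and HCFC1) were higher in library 2 and 0 were lower by the same measure, beside 9.88% and 13.7% of tested genes. These counts compare libraries, not conditions, and cover counting error only, since amplified reads without molecular identifiers can be copies of 1 molecule.

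Fold change followed transcript length across all tested genes, with Spearman coefficients of 0.46 in library 1 and 0.46 in library 2, against 0.03 for library 1 over library 2 (14016 genes, which are not independent replicates). The partners span 800 bases for DPY30 to 8436 bases for HCFC1, and the 2 longest, HCFC1 and NCOA6 (7048 bases), were also the most changed. Over the 10 partners the Spearman coefficient of length with log2 fold change was 0.65, and -0.18 once the trend was removed; the points share the same libraries. At the length of HCFC1 the fitted trend was 0.57 in library 1 and 0.54 in library 2, against observed log2 ratios of 0.73 and 0.98. At the length of NCOA6 the trend was 0.48 and 0.45, against 0.55 and 0.78.

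PAXIP1 is shorter, at 3723 bases, and its trend value was 0.12 in library 1 and 0.13 in library 2 against log2 ratios of 0.57 and 0.61. It thus stood 0.44 and 0.48 above the trend, more evenly than HCFC1 (0.15 and 0.44) and NCOA6 (0.07 and 0.33). With the trend removed the log2 fold change was 0.30 for HCFC1 (SE 0.18, edgeR adjusted p = 0.256), 0.21 for NCOA6 (SE 0.18, edgeR adjusted p = 0.446) and 0.47 for PAXIP1 (SE 0.22, edgeR adjusted p = 0.144). DPY30, the shortest, moved from -0.06 to 0.45 (SE 0.21, edgeR adjusted p = 0.160), its trend values being -0.50 and -0.53. RBBP5, at 0.24 before, was at 0.03 after removal (edgeR adjusted p = 0.932), and WDR5 stayed near 0 at 0.04 (edgeR adjusted p = 0.925). Fold change was also lower where GC content was higher (Spearman coefficient -0.31 in library 1 and -0.21 in library 2, 13709 genes). With length and GC trends removed HCFC1 was at 0.52 and MEN1 at 0.47 (edgeR adjusted p = 0.0576 and 0.0799). In that fit NCOA6 was at 0.20 and PAXIP1 at 0.40 (edgeR adjusted p = 0.467 and 0.205). The part that length or GC has in these values was not tested beyond these removals.

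**Figure D3:**
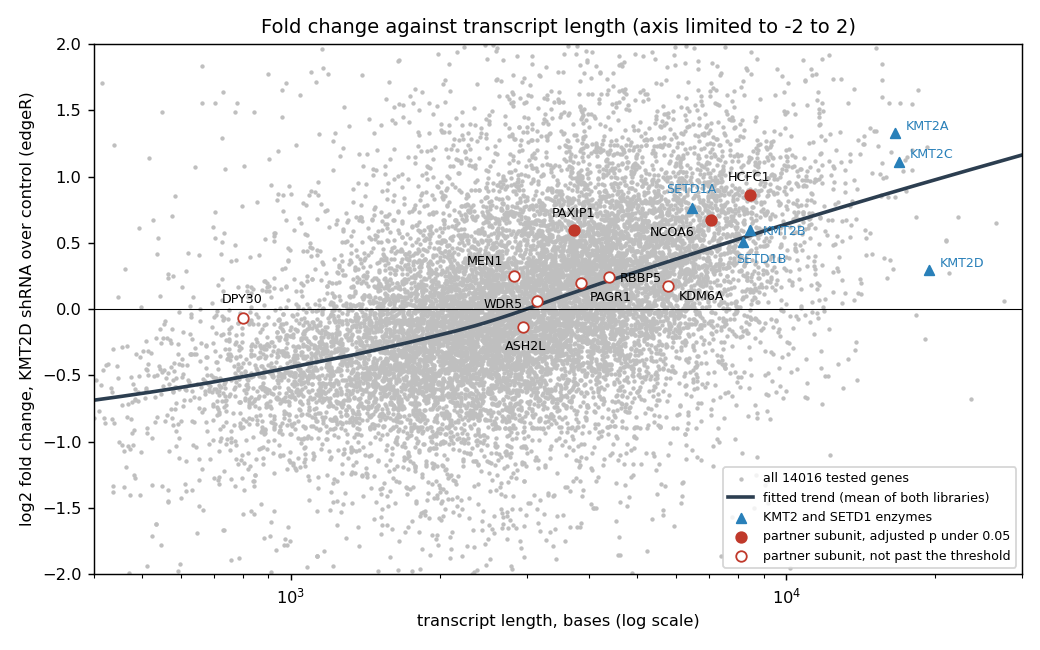
Log2 fold change (edgeR, libraries labelled KMT2D shRNA over control) against transcript length in bases (log axis) for 14016 tested genes (grey), the KMT2 and SETD1 enzymes (triangles) and the 10 partner subunits (circles, filled where the adjusted p was under 0.05), with the fitted trend; the vertical axis is limited to -2 to 2, and the shortest and longest genes also lie outside the frame. HCFC1, NCOA6, PAXIP1, DPY30 and MEN1 lie above the line, and WDR5, RBBP5 and PAGR1 lie close to it. KDM6A and ASH2L lie under it, and KMT2D lies far under it.

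Per unit of length, the partners were spread over a 5.07-fold range in library 1, 5.31-fold in library 2 and 6.44-fold in the control. In the control the order by deposited FPKM was DPY30 at 33.3, MEN1 at 27.2, RBBP5 at 15.9, HCFC1 at 14.4, WDR5 at 13.8, NCOA6 at 13.6, ASH2L at 9.58, PAGR1 at 6.69, KDM6A at 6.30 and PAXIP1 at 5.17. Of the 9 neighbouring pairs in that order 6 did not differ beyond counting error, and the breaks lay between MEN1 and RBBP5, between NCOA6 and ASH2L, and between ASH2L and PAGR1. RBBP5, HCFC1, WDR5 and NCOA6 thus formed a middle run with no break between neighbours in the control. Only neighbours were compared, so the ends of that run, RBBP5 at 15.9 and NCOA6 at 13.6 FPKM, may still differ.

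In the libraries labelled KMT2D shRNA, HCFC1 stood above the rest of that run in both libraries. NCOA6 stood above RBBP5 beyond counting error in library 2 (23.2 against 18.45 FPKM) but not in library 1 (20.2 against 19.3 FPKM, 95% interval of the ratio 0.936 to 1.19). HCFC1 was at 26.4 ± 2.78 FPKM (SD, n = 2), NCOA6 at 21.7 ± 2.11 FPKM, RBBP5 at 18.9 ± 0.587 FPKM and WDR5 at 14.8 ± 0.870 FPKM. MEN1 at 33.2 ± 3.60 FPKM and DPY30 at 32.4 ± 3.39 FPKM were again the 2 most abundant, and they did not differ beyond the spread between libraries. By counting error alone MEN1 stood above DPY30 in library 2 (35.7 against 29.96 FPKM, 95% interval of the ratio 1.01 to 1.52). In library 1 DPY30 was the higher, within counting error. ASH2L at 8.55 ± 2.40 FPKM, PAXIP1 at 7.95 ± 0.0424 FPKM, PAGR1 at 7.77 ± 1.12 FPKM and KDM6A at 7.23 ± 0.728 FPKM were the least abundant, with no neighbours apart beyond that spread. The core subunits together held 43.4% and 40.1% of the summed FPKM of the 10 partners in libraries 1 and 2, against 49.8% in the control, and their own sum was 75.1, 74.1 and 72.7 FPKM. The summed FPKM of the KMT2C and KMT2D partners was 42.9, 46.5 and 31.7, and that of MEN1 and HCFC1 was 55.1, 64.1 and 41.6. These shares and sums were not corrected for the length trend. The median log2 fold change was -0.0002 for the core, 0.40 for the KMT2C and KMT2D partners and 0.56 for MEN1 and HCFC1. With the length trend removed these medians were 0.03, 0.13 and 0.30. No test was made of the shares, which follow from the gene values above.

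**Figure D4:**
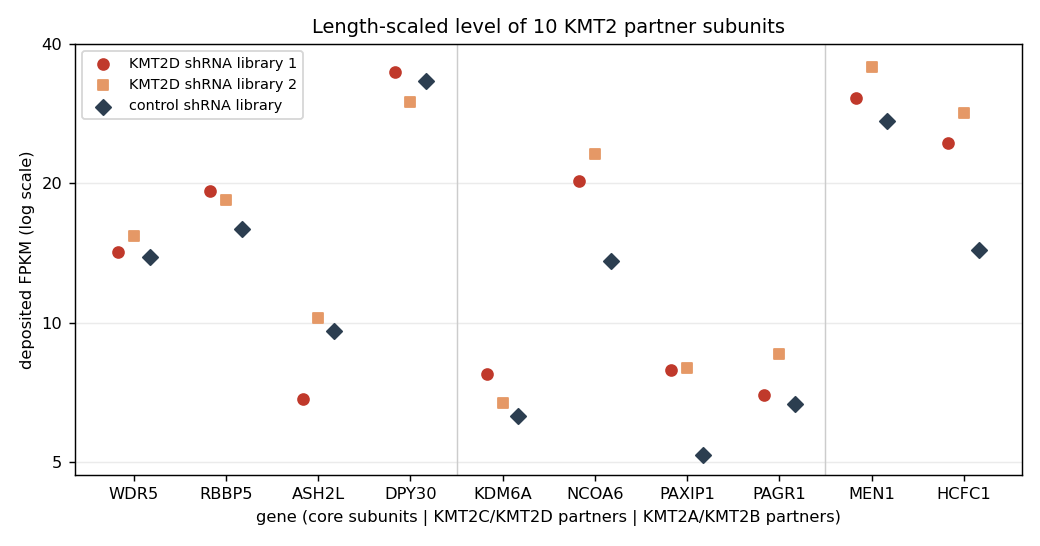
Deposited FPKM (log axis) of each partner subunit in the 3 libraries, 1 point per library. DPY30 and MEN1 lie at 27.2 to 35.7 FPKM in every library, and KDM6A, PAXIP1 and PAGR1 lie at 5.17 to 8.56 FPKM.

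Relative to KMT2D, whose FPKM was 5.53 in library 1, 6.93 in library 2 and 5.02 in the control, the 10 genes were mostly more abundant per unit of length. HCFC1, found with other enzymes of the family, went from 2.86 times the FPKM of KMT2D in the control to 4.42 and 4.09 times in libraries 1 and 2, and NCOA6 from 2.70 to 3.65 and 3.35 times. KDM6A was at 1.40, 0.970 and 1.25 times KMT2D in library 1, library 2 and the control, and PAXIP1 at 1.43, 1.15 and 1.03 times. DPY30 was at 6.29, 4.32 and 6.64 times.

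Most of the enzymes that these partners serve rose as well. Of the 6 catalytic genes 5 rose and 0 fell by edgeR (median log2 fold change 0.68; 0 fell at an unadjusted p under 0.05, and DESeq2 called 2 higher and 0 lower), beside the 16.5% of all genes that rose. KMT2A rose by 1.32 on the log2 scale, KMT2C by 1.11, SETD1A by 0.76, KMT2B by 0.60 and SETD1B by 0.51. These genes are long (6447 to 19432 bases), and with the length trend removed 0 of them rose and KMT2D alone passed, in the other direction (the -0.67 given above, SE 0.18). With length and GC trends removed KMT2D did not pass, while SETD1A passed as higher at 0.60 (edgeR adjusted p = 0.0469).

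Among 9 further subunits and copies of the partners, 2 rose and 0 fell by edgeR (median 0.18; CXXC1, at -0.41, was the 1 gene lower at an unadjusted p under 0.05, and DESeq2 called 0 higher and 0 lower), beside 16.5% and 14.5% of all tested genes by edgeR and 6.53% and 4.27% by DESeq2. The genes that rose were BOD1L1, a subunit of the SETD1A complex (log2 fold change 0.73, SE 0.19, edgeR adjusted p = 0.0023), and KDM6B, which removes the same mark as KDM6A (log2 fold change 0.65, SE 0.20, edgeR adjusted p = 0.0117). With the length trend removed BOD1L1 was at 0.07 and KDM6B at 0.21, and neither passed (edgeR adjusted p = 0.840 and 0.493). WDR5B, a close copy of WDR5, was at 18.8, 23.2 and 15.8 CPM in library 1, library 2 and the control and did not pass (log2 fold change 0.39, edgeR adjusted p = 0.226). HCFC2, the relative of HCFC1, was at 18.2, 16.8 and 12.2 CPM and did not pass either (0.50, edgeR adjusted p = 0.147).

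Demethylases of lysine 4 of histone H3 take away the mark that these complexes place. Of 5 that were tabulated (KDM1A, KDM1B, KDM5A, KDM5B and KDM5C), 3 rose and 0 fell by edgeR (median 0.51). At an unadjusted edgeR p under 0.05, 0 fell, and DESeq2 called 0 higher and 0 lower. The shares of all tested genes were again 16.5% and 14.5% by edgeR and 6.53% and 4.27% by DESeq2. Log2 fold changes were 0.99 for KDM1B (SE 0.22, edgeR adjusted p = 0.000379), 0.65 for KDM5A (SE 0.19, edgeR adjusted p = 0.00744) and 0.51 for KDM5B (SE 0.18, edgeR adjusted p = 0.0233). With the length trend removed KDM1B still passed, at 0.84 (edgeR adjusted p = 0.00814), and KDM5A and KDM5B were at -0.03 and 0.10.

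**Figure D5:**
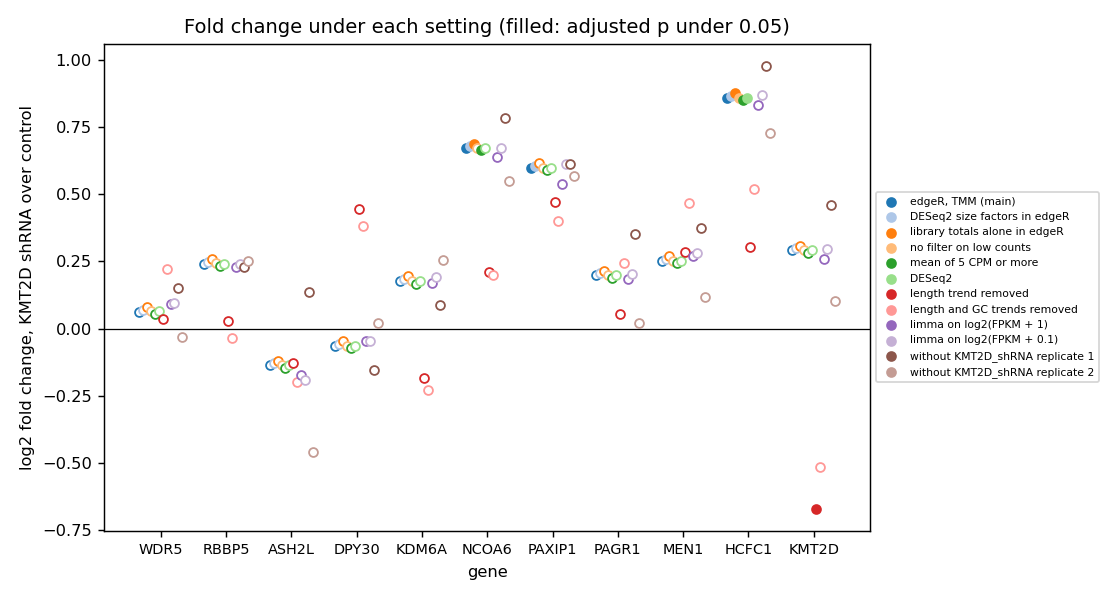
Log2 fold change of the 10 partner subunits and KMT2D under the main fit and each alternative; filled points passed an adjusted p of 0.05, and the 2 settings that leave out a library have no test. HCFC1, NCOA6 and PAXIP1 are above 0 in every setting, and KDM6A, DPY30 and KMT2D change sign when the length trend is removed.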

How the data were processed

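The authors deposited 1 table per library with expected counts, FPKM and transcript length, per the file headers. Lengths were taken to be in bases. Expected counts, as the authors deposited them, are unnormalized estimates of the reads of each gene. That the deposited FPKM values are scaled by transcript length and library total was inferred. Counts, lengths and FPKM implied median totals of 5168982, 5135014 and 5583362 in library 1, library 2 and the control. The deposited counts summed to 5157550, 5123817 and 5559504. The submitters' processing notes list HISAT, Bowtie2 and the build hg19; which tool did what, and how reads were counted, is not given in the sources used here. The labels' protocols name oligo(dT) selection and no step that marks strand.

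Tables were joined on Entrez identifiers, with genes not listed in a library taken as 0, and named from a RefSeq table of GRCh38.p14 (18214 matched directly, 28 by transcript, 89 not). Expected counts were rounded. The main test was edgeR 4.0.16 (R 4.3.3): its default filter by group, TMM scaling (factors 0.992 to 1.02), quasi-likelihood F test on group, Benjamini-Hochberg adjusted over all tested genes. It leaves 1 residual degree of freedom (biological coefficient of variation 10.9%). The spread used for each gene thus came mostly from all tested genes together (median prior degrees of freedom 46.0). SE values derive from the F statistic. Ratios are of shares of library totals with exact binomial intervals, and the log2 ratios per library use TMM scaling and a prior count of 2. The length trend was a loess curve per library (span 0.5), and length with GC a smooth additive fit (mgcv 1.9.3; GC had for 97.8% of tested genes). The script was tested on simulated data. Libraries 1 and 2 were kept as separate samples, as labelled. Their counts differed by more than sampling noise (mean chi-square 5.31 for each gene), so they are not 1 library deposited again, though whether they are separate cultures is unknown.

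Members and lists were chosen with earlier results of these data known. The genes named are KMT2D, the 10 partners, markers, genes that overlap a partner, copies of partners, CXXC1, OGT, ISG15, and list members past the threshold; the overlapping genes, copies, markers, CXXC1, OGT and ISG15 were chosen for naming after their values were seen. Alternatives were DESeq2 1.42.0, other scaling and filters, limma 3.58.1 on log2(FPKM + 1) or log2(FPKM + 0.1), removal of trends, and leaving out either labelled library.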

Additional observations from a re-analysis of the deposited data

How the results depend on the processing

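No paired analysis was possible because the control group holds 1 library. The count of partner subunits that rose was 3 with TMM or DESeq2 size factors in edgeR, beside 16.5% and 16.8% of all tested genes. It was 2 (HCFC1 and NCOA6) with library totals alone and at a mean of 5 CPM or more, beside 13.4% and 16.5%. Without a filter on low counts and with DESeq2 it was 1 (HCFC1 in each), beside 5.74% and 6.53%. It was 0 with the length trend removed and 0 with length and GC trends removed, beside 8.29% and 6.44%. With limma on log2(FPKM + 1) or on log2(FPKM + 0.1) it was 0, beside 3.68% and 0.00713%. In each limma setting 3 partners had an unadjusted p under 0.05, beside 4701 and 4215 of 14016 genes in either direction. The count of partners that fell was 0 in every setting, beside 0.164% to 14.5% of all tested genes. Over all genes 4353 passed with edgeR, against 1897 without a filter, 1169 with DESeq2, 2393 after removal of the length trend, 1739 after that of length and GC trends, and 993 and 24 (1 higher, 23 lower) with limma on FPKM at pseudocounts of 1 and 0.1. DESeq2 gave an adjusted p for 10826 genes. The median log2 fold change of the partners was 0.13 with the length trend removed and 0.23 with length and GC trends removed. It was 0.18 to 0.29 with either labelled library left out. HCFC1 passed in 5 of 9 tested alternatives (adjusted p up to 0.256), NCOA6 in 3 (up to 0.467) and PAXIP1 in 1 (up to 0.471). Signs turned after removal of the length trend for KDM6A (-0.18), DPY30 (0.45) and KMT2D (-0.67), and after that of both trends for KDM6A (-0.23), RBBP5 (-0.033), DPY30 (0.38) and KMT2D (-0.52). Beyond the trend removals, the cause of these shifts was not tested. Counts of 106 to 170 for ASH2L, DPY30, PAXIP1 and PAGR1 limit the precision of their values, and the control cannot be left out.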

Other observations

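WDR5, HCFC1 and PAXIP1 also work outside the methyltransferase complexes, and 10 genes for those other partners were tabulated. Of these, 2 rose and 1 fell in the labelled libraries by edgeR (median log2 fold change 0.02), beside 16.5% of all tested genes that rose and 14.5% that fell. DESeq2 called 1 of them higher and 0 lower, beside 6.53% and 4.27% of all tested genes. TP53BP1, a DNA damage response protein, was at 157 CPM in library 1, 151 CPM in library 2 and 77.7 CPM in the control (log2 fold change 0.97, SE 0.18, edgeR adjusted p = 4.17e-05). It also passed without the length trend, at 0.58 (edgeR adjusted p = 0.0257). PHF20, a reader protein of the acetyltransferase complex that WDR5 shares, was at 106, 86.7 and 67.5 CPM (log2 fold change 0.49, edgeR adjusted p = 0.0345), and KAT8, the acetyltransferase of that complex, was at 12.4, 10.7 and 18.2 CPM (-0.67, edgeR adjusted p = 0.0487). Neither passed without the length trend (edgeR adjusted p = 0.678 and 0.332). OGT, the sugar transferase that cleaves and modifies HCFC1, was at 259, 259 and 223 CPM and did not pass (log2 fold change 0.20, SE 0.17, edgeR adjusted p = 0.400).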
